A study of Mus musculus with 24 samples.

Results

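Carriers of metformin, the oral antidiabetic drug, were followed in the distal small intestine of mice. They were Slc22a2 and Slc22a3 (organic cation transporters), Slc22a4 and Slc22a5 (carnitine and organic cation transporters), Slc29a4 (the plasma membrane monoamine transporter), Slc47a1 (the multidrug and toxin extrusion antiporter), Slc19a2 and Slc19a3 (thiamine transporters) and Slc6a4 (the serotonin transporter). These 9 genes of the 55536 in the read-count table were chosen because their proteins are known to carry the drug, and each was found by the symbol of its Ensembl identifier. The rule itself used no expression value, though the genes were picked with earlier results of these data known. RNA came from 24 C57BL/6N mice of an inbred strain, 1 library per animal and 1 animal per cage, in 4 groups of 6 (3 labelled male, M1 to M3, and 3 labelled female, F1 to F3). Mice in the CD group ate a control diet with 10% of the calories as fat, and mice in the HFD group a high-fat diet with 60%. The CDmetf and HFDmetf groups ate the same diets and, once 20 weeks had passed, drank water with metformin (50 mg/kg of body mass per day) for 10 weeks. All animals received 1 of the diets for the whole period, started as young mice, and none was untreated chow-fed. The HFD groups model obesity induced by feeding, with no gene altered. Each library is a piece of whole tissue, so epithelium, muscle, nerve and immune cells were read together.

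Metformin carries a positive charge at the pH of the body and crosses membranes poorly without a carrier. In the small intestine, carriers on the lumen side of the enterocyte take it up, and carriers on both sides move it on or back. The same proteins have everyday substrates: carnitine for Slc22a5, ergothioneine for Slc22a4, monoamines for Slc22a3, Slc29a4 and Slc6a4, and vitamin B1 for Slc19a2 and Slc19a3.

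Slc22a4 and Slc22a5 lie near each other on the minus strand of chromosome 11 (GRCm38, GENCODE M21: 53983123 to 54028090 and 53864542 to 53891660). Slc22a2 and Slc22a3 lie near each other on chromosome 17, on opposite strands (12584132 to 12628488, plus, and 12418960 to 12507704, minus). The upstream sequences of 4 genes are shown to set the windows of the 2 carnitine and organic cation transporters beside those of 2 scarcer carriers. Each is the 250 bases before the gene's RefSeq start (GRCm38.p6), read on the gene's own strand, which is minus for all 4. Capitals mark the letters GGGCGG, the core of the GC box bound by the Sp1 family, or CCGCCC, the same letters on the other strand. The windows are chr11:53891704-53891953 (Slc22a5), chr11:54028105-54028354 (Slc22a4), chr17:12507705-12507954 (Slc22a3) and chr1:83038449-83038698 (Slc19a3).
Slc22a5: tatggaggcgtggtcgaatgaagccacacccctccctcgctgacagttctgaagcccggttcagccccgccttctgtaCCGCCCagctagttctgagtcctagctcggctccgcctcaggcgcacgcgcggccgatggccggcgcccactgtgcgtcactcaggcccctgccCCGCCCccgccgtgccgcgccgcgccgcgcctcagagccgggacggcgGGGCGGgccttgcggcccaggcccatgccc
Slc22a4: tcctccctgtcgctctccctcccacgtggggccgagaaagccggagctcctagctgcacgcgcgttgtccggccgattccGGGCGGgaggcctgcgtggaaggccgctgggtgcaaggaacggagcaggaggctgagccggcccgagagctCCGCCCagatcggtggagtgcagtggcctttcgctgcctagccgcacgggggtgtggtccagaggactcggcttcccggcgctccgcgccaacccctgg
Slc22a3: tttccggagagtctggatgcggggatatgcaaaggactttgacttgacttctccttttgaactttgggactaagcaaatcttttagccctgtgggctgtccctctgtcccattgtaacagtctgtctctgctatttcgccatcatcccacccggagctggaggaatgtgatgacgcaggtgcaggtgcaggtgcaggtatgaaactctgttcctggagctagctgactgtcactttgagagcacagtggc
Slc19a3: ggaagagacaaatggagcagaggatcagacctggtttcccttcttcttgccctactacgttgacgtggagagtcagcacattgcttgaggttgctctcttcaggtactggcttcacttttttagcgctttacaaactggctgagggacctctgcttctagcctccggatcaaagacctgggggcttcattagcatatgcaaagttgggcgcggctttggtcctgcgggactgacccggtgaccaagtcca
The window of Slc22a5 held 3 such motifs and that of Slc22a4 held 2, with GC contents of 73.6% and 71.2%. The windows of Slc22a3 and Slc19a3 held 0, with GC contents of 51.2% and 52.8%, near the median of all 32851 RefSeq windows of this length (52.4%). Of all these windows, 32.74% held the motif on at least 1 strand. Of the other members, Slc29a4 (9 motifs, some overlapping each other), Slc6a4 (3) and Slc19a2 (2) held it, and Slc22a2 (0) did not. The window of Slc29a4 lies 9589 bases inside the gene as GENCODE draws it, so it is not the window of the longest GENCODE model. The half-site AGGTCA of nuclear receptors such as Hnf4a was found on neither strand of these 8 windows (14.02% of all windows hold it), which says only that these letters are absent there. The TATA box letters TATAAA were found in the window of Slc29a4 and in none of the other 7 (12.37% of all windows hold them). No window was matched for Slc47a1.

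The libraries differed widely in depth, from 1829690 to 40606442 reads on genes (median 3467308), and 13 held under 5000000. In the library CD M3, 85.4% of the reads on genes fell on 10 genes, led by transcripts that resemble ribosomal RNA. HFD M2 and HFD F2 went against their sex labels in sex-linked transcripts (3355 reads of Xist and 0 from Y-linked genes in HFD M2, 1 and 423 in HFD F2), so both are called by their labels. Ileal marker genes such as Fabp6 were read in every group. HFD M3 was at the edge, with 2 reads of Fabp6 (0.816 CPM), the lowest of 24, and a score of proximal markers (mean z-score) of 1.26, the highest of 24. With edgeR's quasi-likelihood test over 13505 genes, 0 genes passed an adjusted p (FDR) of 0.05 in the 4 comparisons of groups, and 1 gene (0.0074%), not a transporter, between the sexes. DESeq2 called 12 genes for HFD vs. CD and 4 for CDmetf vs. CD, and limma-voom 0 in these. None of the 7 transporter genes that passed the filter on low counts was called by any of these tools, and Slc22a2 and Slc19a3 did not pass it.

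In all, 7 carriers were expressed and 2 were at or near the limit of detection. Levels are given as counts per 1000000 reads (CPM) after TMM scaling of the library sizes, and as CPM per kb of exon where genes are compared. Slc22a5 stood first with a mean of 19.4 ± 5.34 CPM per kb (SD, n = 24), above 83.9% of the 12453 protein-coding genes that passed the filter on low counts. Slc6a4 followed with 12.7 ± 4.61 CPM per kb and Slc22a4 with 11.1 ± 3.74. The middle was held by Slc47a1 (6.19 ± 2.90 CPM per kb), Slc19a2 (3.24 ± 0.795) and Slc22a3 (1.85 ± 0.887). Slc29a4 had 1.04 ± 0.549 CPM per kb, above 10.9% of the same genes. Each neighbour in this order was compared within libraries by a two-sided sign-flip permutation test (100000 draws, log2 scale, 8 pairs, Benjamini-Hochberg). The order was set from the same means. Both pairs with Slc19a3 rest on libraries with 0 reads, and nothing is read from their test. Of the 6 pairs among the other 7 genes, 5 differed, with adjusted p of at most 0.000613. This p measures the spread over libraries only. The exon length that divides a gene's CPM is a fixed value, and the transcript forms present were not determined. Slc6a4 and Slc22a4 did not differ beyond their spread: the mean log2 difference was 0.15 ± 0.38 (SD, n = 24), Slc6a4 was higher in 15 of 24 libraries and the permutation p was 0.0599. Slc22a5 exceeded Slc6a4 in 21 of 24 libraries by a mean log2 difference of 0.68 ± 0.68 (SD).

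**Figure D1:**
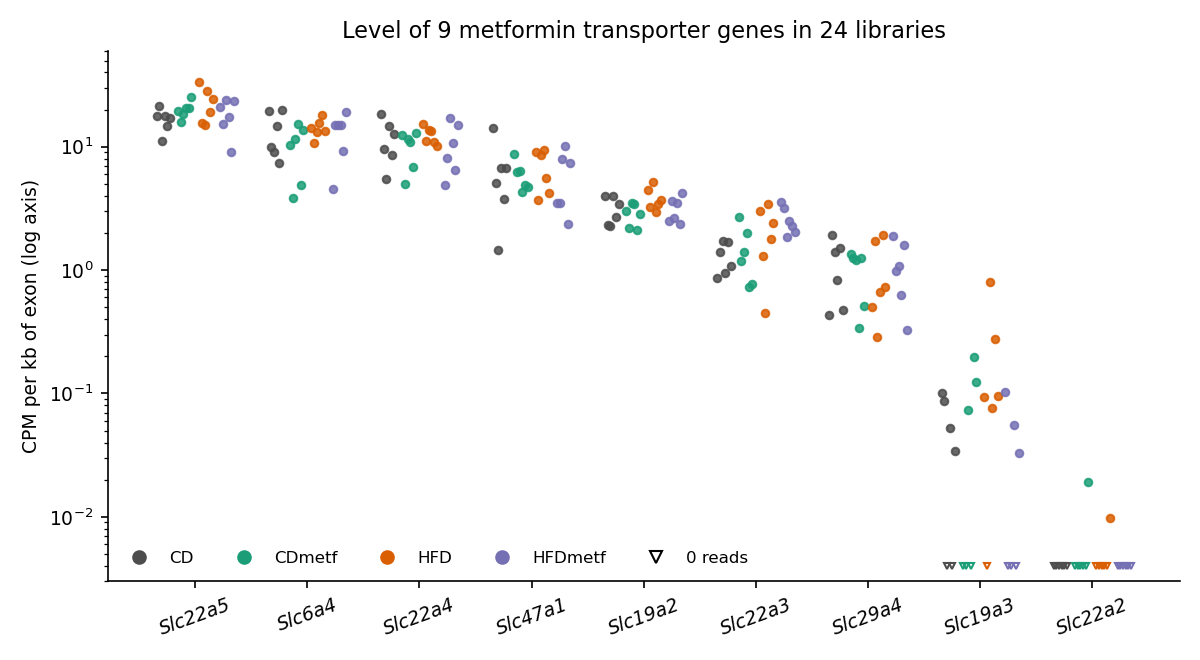
CPM per kb of exon on a log axis for the 9 transporter genes, in order of mean level, with 1 point per library coloured by group. Open triangles at the foot are libraries with 0 reads, 22 of 24 for Slc22a2 and 9 of 24 for Slc19a3, while the 4 groups overlap for every gene.

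Slc22a2, the transporter that takes metformin up from blood in the kidney tubule, was close to absent. It had 3 reads in all 24 libraries together, 2 in CDmetf F3 and 1 in HFD F3, and 0 in the other 22. A count of 0 allows up to 3 reads, which is 0.0701 CPM in the deepest of these 22 libraries and 1.71 CPM in the shallowest. These limits cover counting error only. Summed over the 6 CD libraries the limit was 0.0571 CPM.

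Slc19a3, the thiamine transporter of the enterocyte's luminal face, had 71 reads in all, with at least 1 read in 15 libraries and at least 3 in 7. Its lowest, median and highest CPM were 0, 0.132 and 0.307 in CD, 0, 0.114 and 0.603 in CDmetf, 0, 0.290 and 2.45 in HFD, and 0, 0.0503 and 0.316 in HFDmetf. The highest value, 2.45 CPM in HFD M3, was 6 reads. No fold is given for Slc22a2 or Slc19a3, since neither passed the filter.

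Slc22a3, a high-capacity carrier of monoamines and of metformin, had the largest difference between the diets among the members tested, which did not pass the adjusted threshold. Its lowest, median and highest CPM were 3.88, 5.59 and 7.76 in CD, and 2.04, 9.47 and 15.6 in HFD. With metformin they were 3.31, 5.86 and 12.2 in CDmetf, and 8.37, 10.7 and 15.98 in HFDmetf. The CD libraries were low and close together, the HFD libraries spread from the lowest to nearly the highest value of the series, and all 6 HFDmetf libraries stood above the median of CDmetf, although the ranges overlapped. The group means were 5.80 ± 1.70 CPM in CD, 6.62 ± 3.43 in CDmetf, 9.34 ± 5.03 in HFD and 11.6 ± 3.00 in HFDmetf (SD, n = 6 each).

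In the fit across all genes, the log2 fold change (logFC) of Slc22a3 was 0.72 for HFD vs. CD (SE = 0.34, FDR = 0.999 by edgeR's quasi-likelihood test), and 1.19 with limma-voom (FDR = 0.265). For HFDmetf vs. CDmetf it was 0.86 (SE = 0.33, FDR = 0.608 by edgeR), and HFDmetf was higher in 6 of 6 pairs of libraries with the same sex label and number. Such counts of pairs are descriptions, since the numbers were not taken to pair the animals. The share of all 13505 genes at an unadjusted p under 0.05 was 4.59% in the first comparison and 7.7% in the second, and among the 7 members tested Slc22a3 was the single one in both by this fit. For HFD vs. CD that side of 0.05 was lost with only the 12 libraries compared. It was also lost in 6 of 24 fits with 1 library left out (CD M1, CD F1, CD F3, HFD M1, HFD F1 or HFD F3). All 6 left out 1 of the 12 libraries compared. Fits without a CDmetf or HFDmetf library kept both compared groups whole, so they could hardly change it. Slc22a5 came under 0.05 in 5 of 10 other settings. Averaged over metformin, the high-fat groups had a logFC of 0.79 over the control groups (SE = 0.24, FDR = 0.421 by edgeR), a 1.73-fold level with a 95% confidence interval from 1.23 to 2.42. There the background was 6.01%, and Slc22a3 was 1 of 7. This average is built from HFD vs. CD and HFDmetf vs. CDmetf, so it adds no new libraries. Of the 12 high-fat libraries, 11 lay above the median of the 12 control-diet libraries (5.85 CPM). The exception was HFD M3, where the 2.04 CPM of Slc22a3 were 5 reads. Without HFD M3 the averaged logFC was 0.90 (FDR = 0.355 by edgeR). DESeq2 gave 0.77 (FDR = 0.124) and limma-voom 1.07 (FDR = 0.0647).

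The diet difference of Slc22a3 was unequal in deep and shallow libraries. In the 11 libraries with over 5000000 reads, the mean was 12.6 ± 3.06 CPM in 5 high-fat and 5.11 ± 1.64 in 6 control-diet libraries, a ratio of 2.46 (SD). In the 13 shallower libraries it was 8.93 ± 4.28 in 7 and 7.32 ± 3.07 in 6, a ratio of 1.22. Fitted in the 2 sets apart, with all their genes, the averaged logFC was 1.51 in the deeper and 0.69 in the shallower libraries, and whether these differ was not tested. Within replicate numbers 1, 2 and 3, which follow the experiment's blocks if the labels do, the ratio of high-fat to control-diet means was 1.92, 1.70 and 1.35. Within the sex labels it was 1.99 in females and 1.44 in males, and 2.10 and 1.56 without HFD M2 and HFD F2, whose sex-linked reads go against their labels. Metformin gave Slc22a3 a logFC of 0.26 in the high-fat groups and of 0.12 in the control-diet groups (SE = 0.33 and 0.34, FDR = 0.782 and 1.00 by edgeR), with an interaction of 0.14 (SE = 0.47).

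Part of the Slc22a3 exons lie opposite exons of Plg, the plasminogen gene, but Plg had 31 reads in all libraries against 2506 for Slc22a3. An antisense gene over Slc22a3, AC132106.1, had 12 reads. The strand counted was not given in the sources used here. None of the 7 correlations of Slc22a3 with scores of cell type and region markers passed the test over 24 libraries (r from -0.28 to 0.24). Within single groups of 6 some were far larger, but they differed between groups. In the order CD, CDmetf, HFD and HFDmetf, r with enteric neuron and glia markers was 0.83, 0.16, 0.20 and 0.92. With smooth muscle it was 0.75, -0.07, 0.25 and 0.82, and with epithelium -0.87, -0.04, 0.20 and -0.42. With enteroendocrine markers it was 0.94, -0.53, 0.43 and -0.57. The part of tissue makeup in the diet difference of Slc22a3 was not tested.

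**Figure D2:**
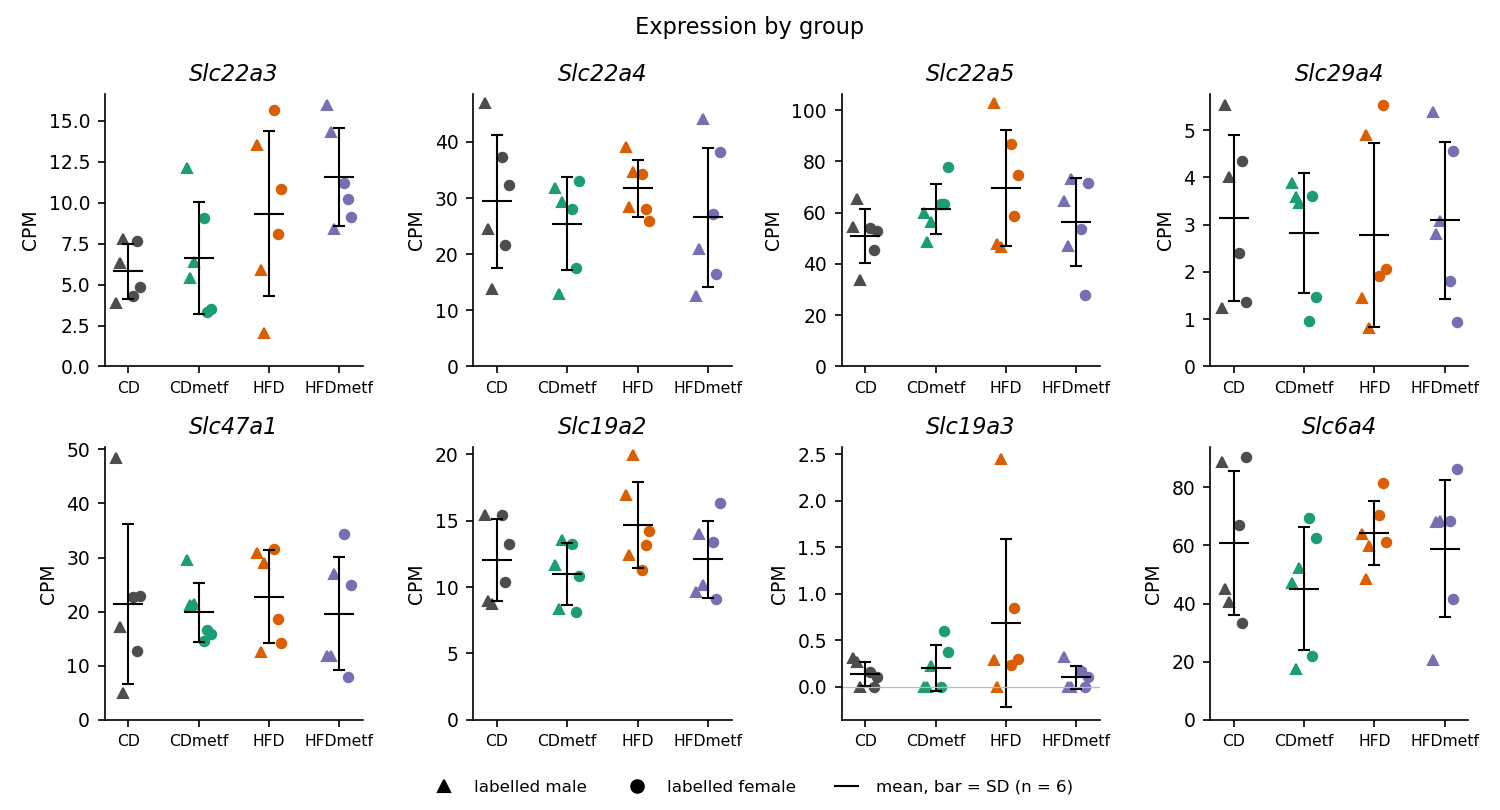
CPM of 8 transporter genes in the 4 groups, with triangles for libraries labelled male, circles for female, and the mean ± SD of 6 libraries in black. Slc22a3 is higher in most HFD and HFDmetf libraries than in CD and CDmetf, with overlap, while the other 7 genes share their ranges across the groups.

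Slc22a5, the high-affinity sodium-dependent carnitine transporter, was the most abundant member per kb of exon in every group. Its lowest, median and highest CPM were 33.9, 53.5 and 65.4 in CD, 48.4, 61.5 and 77.9 in CDmetf, 46.5, 66.6 and 102.7 in HFD, and 27.9, 59.0 and 73.1 in HFDmetf. The highest library was HFD M1 and the lowest HFDmetf F2, and all 4 ranges overlapped. The logFC was 0.41 for HFD vs. CD (SE = 0.20, FDR = 0.999) and -0.14 for HFDmetf vs. CDmetf (SE = 0.20, FDR = 0.875), by edgeR. Metformin gave a logFC of 0.26 on the control diet (higher in 5 of 6 pairs) and of -0.29 on the high-fat diet (lower in 5 of 6 pairs). The difference between these effects, the diet by metformin interaction, was -0.55 (SE = 0.28, FDR = 0.811 by edgeR), with a 95% confidence interval from -1.14 to 0.04. None of the 7 members reached an unadjusted p under 0.05 in the interaction by edgeR, where 5.83% of all genes did. Slc22a5 did so in 2 of 9 other settings, limma-voom (-0.58) and no filter on low counts (-0.63).

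Slc22a4, the ergothioneine transporter, had means of 29.4 ± 11.8 CPM in CD, 25.4 ± 8.27 in CDmetf, 31.8 ± 5.06 in HFD and 26.6 ± 12.4 in HFDmetf (SD, n = 6 each). Its libraries ran from 12.5 CPM (HFDmetf M1) to 46.9 (CD M1), so the spread within a group exceeded the differences between means. The averaged effect of metformin was a logFC of -0.26 (SE = 0.19, FDR = 0.784 by edgeR) with a 95% confidence interval from -0.65 to 0.12. The averaged diet effect was 0.09 (SE = 0.18).

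Slc47a1 exchanges organic cations for protons and moves metformin out of cells. Its means were 21.5 ± 14.8 CPM in CD, 19.8 ± 5.51 in CDmetf, 22.8 ± 8.68 in HFD and 19.6 ± 10.5 in HFDmetf (SD, n = 6 each). CD alone held both the lowest and the highest library of the series, CD M3 with 4.94 CPM and CD M1 with 48.3. The value of CD M3 rests on 21 reads, in a library with 85.4% of its reads on genes in 10 genes. Its score of epithelium markers (mean z-score) was -1.47, and the part of tissue makeup was not tested. The averaged logFC was 0.03 for diet (95% confidence interval from -0.48 to 0.54) and -0.10 for metformin (-0.61 to 0.42).

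Slc29a4, a carrier of serotonin and dopamine that takes up metformin best in acid surroundings, was the scarcest of the 7 tested members. Its lowest, median and highest CPM were 1.23, 3.20 and 5.54 in CD, 0.969, 3.53 and 3.88 in CDmetf, 0.816, 1.99 and 5.53 in HFD, and 0.939, 2.94 and 5.38 in HFDmetf. Between 2 and 107 reads per library stood behind these values. The averaged logFC was -0.02 for diet (95% confidence interval from -0.59 to 0.55) and 0.03 for metformin (-0.55 to 0.61), so changes within about 1.5-fold in either direction could not be told from 0 at this depth. Libraries labelled male had a median of 3.53 CPM and those labelled female 1.99 CPM. The logFC was 0.56 (SE = 0.28, FDR = 0.693 by edgeR) and 0.57 without HFD M2 and HFD F2, whose labels are in doubt. It was 0.37 without HFDmetf M1. By edgeR 7.09% of all genes but 0 of the 7 members were under an unadjusted p of 0.05 between the sexes.

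Slc19a2, the thiamine transporter found in most tissues, varied least relative to its mean among the 7 members tested. Its lowest, median and highest CPM were 8.71, 11.8 and 15.4 in CD, 8.13, 11.3 and 13.5 in CDmetf, 11.3, 13.7 and 20.0 in HFD, and 9.11, 11.8 and 16.3 in HFDmetf. HFD M3 was highest, and HFD was above CD in 5 of 6 pairs. The logFC was 0.26 for HFD vs. CD (SE = 0.18, FDR = 0.999) and 0.17 for HFDmetf vs. CDmetf (SE = 0.19, FDR = 0.820), by edgeR. It was -0.23 for HFDmetf vs. HFD (FDR = 0.669) and -0.15 for CDmetf vs. CD (FDR = 1.00), by the same test.

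Slc6a4 returns serotonin from the tissue into epithelial and nerve cells. Its lowest, median and highest CPM were 33.4, 56.0 and 90.4 in CD, 17.3, 49.7 and 69.5 in CDmetf, 48.4, 62.5 and 81.7 in HFD, and 20.6, 68.2 and 86.4 in HFDmetf. The 3 lowest libraries were CDmetf M2 (17.3 CPM), HFDmetf M1 (20.6) and CDmetf F2 (22.0), named after seeing the values. Their scores of proximal markers were -1.52, -0.92 and -0.57, and the part of this score was not tested. HFDmetf also had the highest median of the 4 groups. The logFC was -0.49 for CDmetf vs. CD (SE = 0.30, FDR = 0.963 by edgeR) and -0.14 for HFDmetf vs. HFD (SE = 0.30, FDR = 0.893). For HFDmetf vs. CDmetf it was 0.47 (SE = 0.30, FDR = 0.704) and for HFD vs. CD 0.12 (SE = 0.30, FDR = 0.999), by the same test. An antisense gene over Slc6a4, Gm12343, had 84 reads against 18880 for Slc6a4.

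In the comparisons of metformin none of the 7 members was under an unadjusted p of 0.05 by edgeR, against 6.72% of all genes in HFDmetf vs. HFD, 4.95% in CDmetf vs. CD and 5.15% averaged over the diets. Of the 7, 5 had a negative averaged logFC of metformin (median of the 7, -0.10, against 0.01 over all genes tested, of which 52.35% were positive). The largest in size was that of Slc6a4 (-0.31, SE = 0.21, FDR = 0.784 by edgeR). With only the 12 libraries compared, Slc6a4 came under an unadjusted p of 0.05 for CDmetf vs. CD. The comparisons share groups, so their values are not independent.

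**Figure D3:**
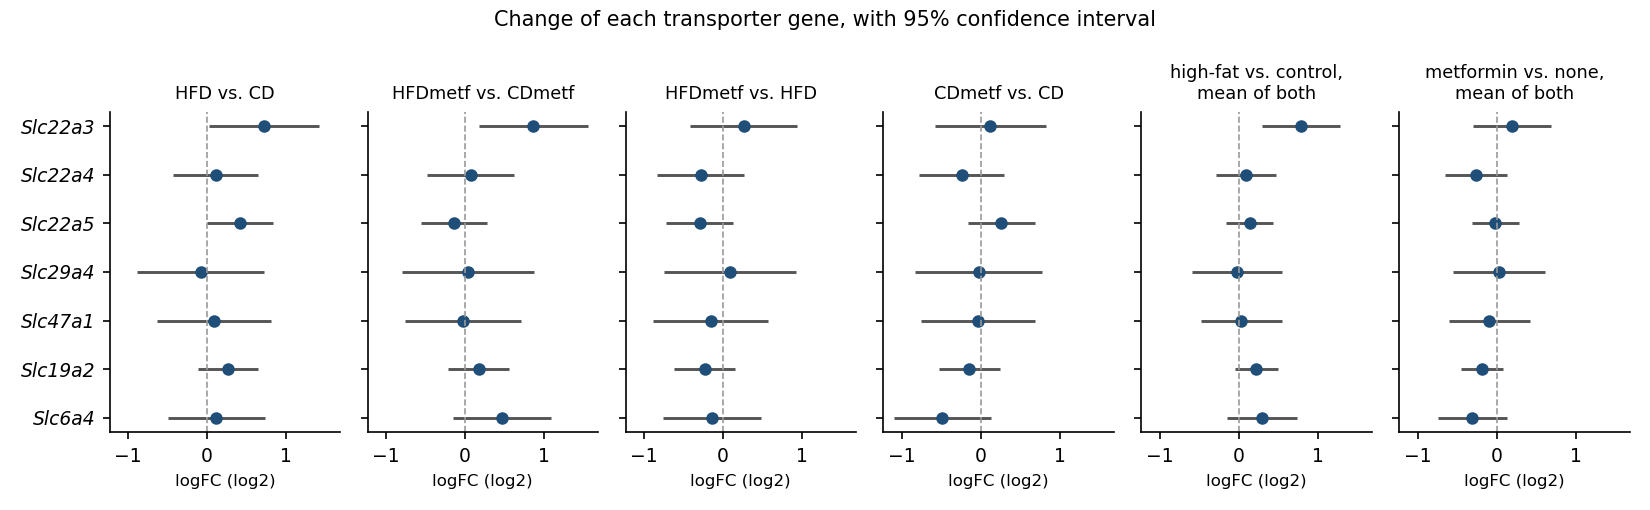
LogFC (log2) of the 7 transporter genes tested in 4 comparisons and 2 averages, as points with 95% confidence intervals. The intervals of Slc22a3 lie above 0 in the 3 diet panels, and all intervals cross 0 in the 3 panels of metformin.

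The levels of 6 of the 7 members moved with the makeup of the piece of tissue. Scores were mean z-scores of log2 CPM over marker lists, and each member was set against 7 scores over the 24 libraries by Pearson's r and Spearman's rho, with 100000 permutations and Benjamini-Hochberg adjustment over 49 pairs. Of these, 22 passed an adjusted p of 0.05 by both r and rho. In bulk tissue, fewer cells of a type and less RNA per cell cannot be told apart.

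Slc22a4 followed the epithelium markers (r = 0.81, rho = 0.83, adjusted permutation p = 0.000163) and ran against smooth muscle (r = -0.78). Slc47a1 (r = 0.72) and Slc22a5 (r = 0.70) followed epithelium as well, the latter at r = 0.40 once the 2 libraries farthest from the median score were left out. All 9 epithelium markers passed the filter in these libraries, and their summed level ran from 8784 to 26650 CPM in CD, 11190 to 22230 in CDmetf, 14180 to 26610 in HFD and 5977 to 26540 in HFDmetf.

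Markers of the proximal small intestine moved with 4 members. The list held 6 genes (Fabp1, Lct, Gata4, Cybrd1, Adh1 and Rbp2) that all passed the filter. Slc6a4 had r = 0.80 (rho = 0.74, adjusted permutation p = 0.000163), Slc19a2 r = 0.77 and Slc22a4 r = 0.68, and Slc29a4 ran the other way at r = -0.79 (rho = -0.78, adjusted permutation p = 0.000163). Without the 2 libraries farthest from the median score these became 0.79, 0.67, 0.61 and -0.80. Within the groups CD, CDmetf, HFD and HFDmetf, r was -0.91, -0.90, -0.88 and -0.83 for Slc29a4, and 0.89, 0.76, 0.15 and 0.88 for Slc6a4. The score of 6 distal markers passed with Slc29a4 alone (r = 0.49, rho = 0.47, adjusted permutation p = 0.0326), and r was between -0.38 and 0.38 for the other 6 members and 0.086 for Slc22a4. Slc29a4 also followed smooth muscle (r = 0.66) and Slc6a4 ran against it (r = -0.75).

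The summed level of the proximal markers differed widely between animals of one group. It ran from 177.5 to 3954 CPM in CD (median 1420), 100.6 to 4704 in CDmetf (median 188.1), 598.4 to 7708 in HFD (median 3037) and 107.0 to 3544 in HFDmetf (median 1716). The 3 libraries low in Slc6a4 were among those with a negative proximal score, CDmetf M2 at -1.52, HFDmetf M1 at -0.92 and CDmetf F2 at -0.57. The part of this score in the differences of Slc6a4, Slc19a2, Slc22a4 and Slc29a4 between groups was not tested. For Slc22a3, r with the proximal score was -0.14 over all libraries, and -0.92, 0.067, -0.51 and -0.32 within CD, CDmetf, HFD and HFDmetf.

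**Figure D4:**
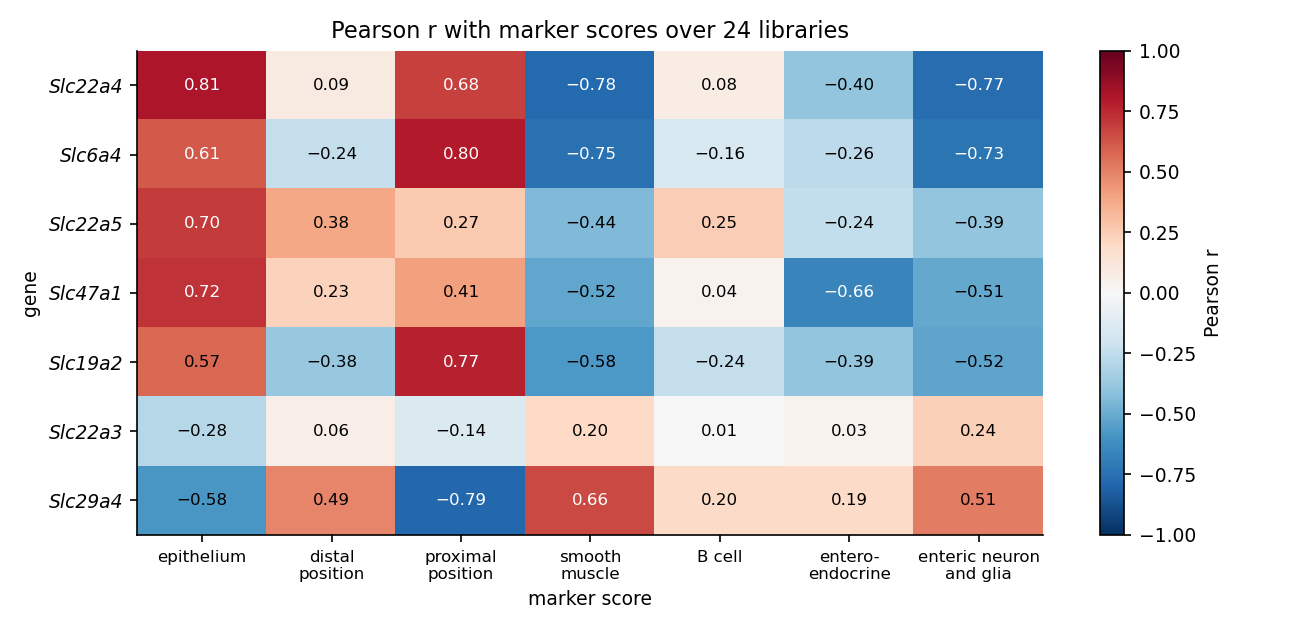
Pearson r over 24 libraries between 7 transporter genes (rows) and 7 marker scores (columns), from -1 in blue to 1 in red. Slc22a4, Slc6a4, Slc22a5, Slc47a1 and Slc19a2 are positive with epithelium, Slc29a4 is the reverse, and Slc22a3 lies between -0.28 and 0.24 over all libraries.

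**Figure D5:**
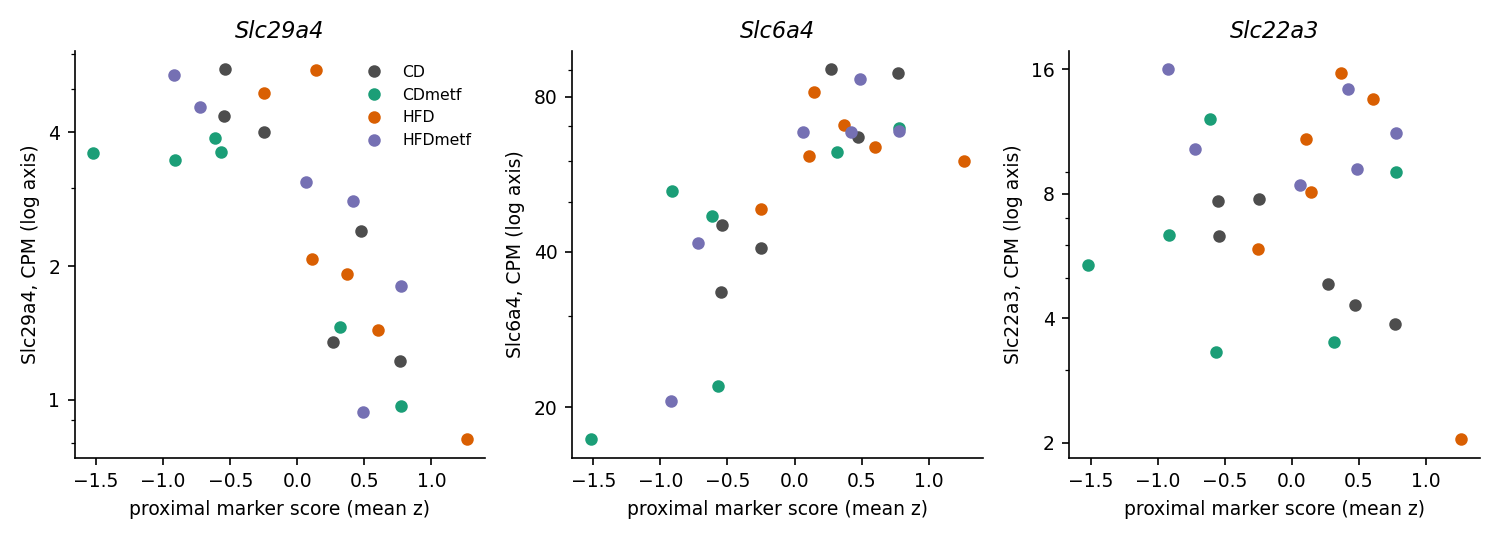
CPM (log axis) of Slc29a4, Slc6a4 and Slc22a3 against the proximal marker score (mean z), with 1 point per library coloured by group. Slc29a4 falls along the score (r = -0.79), Slc6a4 climbs (r = 0.80), and Slc22a3 has r = -0.14 over all 24 libraries.

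Among the members themselves, log2 CPM of Slc22a4 and Slc6a4 had the largest r (0.82, 24 libraries), Slc22a4 and its neighbour Slc22a5 had 0.50, and Slc29a4 was negative with Slc22a4 (-0.59), Slc6a4 (-0.59) and Slc19a2 (-0.69). The libraries share depth and tissue makeup, so these are descriptions. Over all genes tested, the nearest to Slc22a3 were Tcf23 (r = 0.78), Usp5 (0.77) and Iba57 (0.76). Nearest to Slc22a4 were Tbk1 (0.94), Btnl7-ps (0.93) and Abcc2 (0.93), and to Slc22a5 Edem1 (0.86), Usp6nl (0.84) and Ppp2r5c (0.82). Among the genes nearest to Slc6a4 were Neurl3 (0.94) and Kcnj13 (0.93). Slc29a4 had Rps26 (0.87), Osbpl7 (0.87) and Drosha (0.86), Slc47a1 had Naa60 (0.90), Cdc42se2 (0.90) and Ttc39c (0.88), and Slc19a2 had Plac8 (0.86), Aqp11 (0.84) and Cox7b (0.83).

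Other genes of the carriers' pathways were read from lists, and 0 of them passed an FDR of 0.05 in any comparison by edgeR. For the carnitine pathway around Slc22a5, which carries fatty acids into the mitochondrion, 7 of 9 genes passed the filter. All 7 had a positive logFC for HFD vs. CD (median 0.36, against 0.00 over all genes, of which 48.97% were positive), and 2 of them had an unadjusted p under 0.05, against 4.59% of all genes. The median summed level of the epithelium markers was 18350 CPM in CD and 22300 in HFD, and that of the proximal markers 1420 and 3037, and their part in these values was not tested. The smallest p was that of Cpt2, the inner-membrane carnitine palmitoyltransferase (logFC = 0.58, SE = 0.18, FDR = 0.999 by edgeR). Averaged over metformin all 7 were positive, as were 52.67% of all genes, but this average contains HFD vs. CD. HFDmetf vs. CDmetf shares no library with HFD vs. CD. There 6 of the 7 were positive (median 0.10, against 0.03 over all genes, of which 55.45% were positive). None was at an unadjusted p under 0.05 there by edgeR, against 7.7% of all genes. Slc25a20, which brings acylcarnitine across the inner membrane, had a logFC of 0.51 averaged over metformin (SE = 0.18, FDR = 0.577 by edgeR). Its means were 46.5 ± 16.5 CPM in CD, 58.4 ± 13.6 in CDmetf, 76.6 ± 24.3 in HFD and 72.7 ± 27.6 in HFDmetf. Cpt1a, the entry enzyme of the pathway, had 182.4 ± 57.4 CPM in CD and 206.8 ± 45.6 in HFD (logFC = 0.20, SE = 0.22). For HFDmetf vs. HFD 6 of the 7 were negative (median -0.23, against 0.02 over all genes, of which 53.92% were positive). None was at an unadjusted p under 0.05 by edgeR, against 6.72% of all genes. HFDmetf vs. HFD and HFD vs. CD use the same HFD libraries, so their signs are not independent. The epithelium markers had a median summed level of 15440 CPM in HFDmetf and the proximal markers 1716, both below HFD, and their part was not tested.

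Of 13 thiamine pathway genes 11 passed the filter, and 6 were positive and 5 negative for HFD vs. CD. Slc19a1, the folate carrier of the same family, had the smallest p (logFC = -0.40, SE = 0.17, FDR = 0.999 by edgeR). Of 12 serotonin and monoamine genes 9 passed, with 1 of them at an unadjusted p under 0.05 for HFDmetf vs. HFD, where 6.72% of all genes were. This was Htr3a, a subunit of the serotonin-gated channel of nerve cells (logFC = 1.59, SE = 0.53, FDR = 0.631 by edgeR). It had 0.970 ± 0.788 CPM in HFD and 3.61 ± 1.84 in HFDmetf, against 2.28 ± 1.07 in CD and 2.55 ± 1.52 in CDmetf. As few as 1 read in an HFD library and 4 in an HFDmetf library stood behind these values. The summed enteric neuron and glia markers (6 of 8 passed the filter) ran from 19.56 to 38.58 CPM in HFD (median 26.7) and from 25.99 to 69.4 in HFDmetf (median 37.1), and their part was not tested. Tph1, the enzyme that makes serotonin in enterochromaffin cells, had means from 9.36 ± 2.34 CPM in CD to 10.9 ± 2.57 in CDmetf.

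Of 12 related transporters 11 passed. Slc22a17, a receptor-like member of the family of Slc22a3, had a logFC of 0.98 for HFDmetf vs. HFD (SE = 0.34, FDR = 0.631 by edgeR) and an interaction of 1.43 (SE = 0.47, FDR = 0.771 by edgeR). Its means were 2.17 ± 0.674 CPM in HFD, with as few as 3 reads in a library, and 5.09 ± 2.74 in HFDmetf. Slc44a4, a carrier of thiamine pyrophosphate and choline, had a logFC of -0.59 for the high-fat against the control diets (SE = 0.19, FDR = 0.486 by edgeR). Of the efflux pumps all 6 passed, and Abcb1b, a P-glycoprotein gene, had a logFC of 0.55 for HFD vs. CD (SE = 0.24, FDR = 0.999 by edgeR). Abcg2, the breast cancer resistance protein, had -0.71 for HFDmetf vs. CDmetf (SE = 0.27, FDR = 0.608 by edgeR). Of 7 transcription factors all passed. Hnf4a, a regulator of enterocyte genes, had 1085 ± 109.7 CPM in CD, 1087 ± 153.4 in HFD and 907.6 ± 115.5 in HFDmetf (HFDmetf vs. HFD logFC = -0.25, SE = 0.13, FDR = 0.631 by edgeR). The epithelium markers had a median summed level of 22300 CPM in HFD and 15440 in HFDmetf. The part of tissue makeup was not tested for any of these genes.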

How the data were processed

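Total RNA from 24 intestinal samples was depleted of ribosomal RNA and sequenced as directional paired-end libraries. By the study's methods and the submitters' processing notes, the authors used Trimmomatic 0.39 for trimming and STAR 2.5.3a for mapping to GRCm38 and counting per gene. The deposited values are raw read counts per gene; the annotation release and counted strand were not given in the sources used here. The table had 4 rows that name no gene, left out of totals, and 0 columns of no sample. All 55536 identifiers matched GENCODE M21. From the counts, edgeR 4.0.16 in R 4.3.3 kept 13505 genes (filterByExpr on the 4 groups), scaled by TMM, and fitted a quasi-likelihood model with group, sex and replicate number (17 residual degrees of freedom, Benjamini-Hochberg, threshold 0.05). Scores used log2 CPM with a prior count of 1. The alternatives were DESeq2 1.42.0, limma-voom 3.58.1, RLE scaling, other filters, fewer terms, robust fitting and fewer libraries. In simulated data for HFDmetf vs. HFD, 65% of the genes with a simulated log2 change of 1 were called and 93.5% of those with 2. The simulated counts were drawn gene by gene, with no differences shared between pieces of tissue. These shares check the fit and are not the power for the transporter genes in the real libraries. All members are named. From the lists, genes with an unadjusted p under 0.01 or else the smallest p in a comparison were eligible, with Cpt1a, Tph1 and Hnf4a and the 3 genes nearest to each member; some genes that this rule names are not reported here. Members and lists were chosen with earlier results of these data known. Depth and precision follow from 1829690 to 40606442 reads on genes per library.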

Additional observations from a re-analysis of the deposited data

Results flagged for a closer look

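Within each group of 6, the highest or lowest library of each member was set against its nearest neighbour (Dixon's ratio over 0.625), and 3 of 34 groups with any reads were flagged. The rate of about 1 in 20 by chance holds for normal values and not for counts near 0, so it is no yardstick for these 3. Slc19a3 was flagged in HFD, where HFD M3 had 2.45 CPM from 6 reads and the next library 0.851 CPM. Slc22a2 was flagged for single libraries among libraries at 0, with 0.0471 CPM (2 reads) in CDmetf F3 and 0.0244 CPM (1 read) in HFD F3. There the ratio is 1 whatever the value, so the flag was fixed in advance. All 3 rest on 6 reads or fewer. No member moved one way in all male pairs and the other way in all female pairs, over the 4 comparisons of groups.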

How the results depend on the processing

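Over the 8 comparisons, no setting called any transporter gene that it tested. Slc22a2 and Slc19a3 were tested only without a filter on low counts. Of 32 logFC values of members, 301 of 321 recomputed values kept their sign and side of the threshold, and 20 reversed, none of them past the threshold. The count of genes with an FDR under 0.05, 0 by edgeR and 1 between the sexes, became with DESeq2 12 for HFD vs. CD, 4 for CDmetf vs. CD, 4 for the interaction, 54 for the averaged diets and 22 for the sexes. For the averaged diets it was 4 with limma-voom and 2 without a filter on low counts, and for the sexes 15 without a filter and 8 without HFD M2 and HFD F2. Leaving out 1 library gave 0 to 6 genes for the averaged diets (6 without CDmetf F1) and 1 to 8 for the sexes (8 without HFD M2).

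Averaged diet values reversed for Slc22a4 (-0.007 with limma-voom). Averaged metformin values reversed for Slc22a5 (0.0001 with limma-voom) and Slc29a4 (-0.062 with limma-voom). Without HFD M2 and HFD F2, Slc6a4 had -0.15 for HFD vs. CD and 0.14 for HFDmetf vs. HFD. The split by depth was chosen after seeing the data. In the shallower libraries the averaged diet values of Slc22a5 and Slc47a1 became -0.093 and -0.24, and the averaged metformin value of Slc29a4 became -0.063. In the deeper libraries the averaged diet values became -0.50 (Slc22a4), 0.18 (Slc29a4), -0.35 (Slc47a1), -0.062 (Slc19a2) and -0.36 (Slc6a4), and the averaged metformin values -0.21 (Slc22a3), 0.024 (Slc22a4), 0.14 (Slc22a5), -0.062 (Slc29a4), 0.18 (Slc47a1) and 0.0076 (Slc19a2). The cause was not tested in any of these.

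With 1 library left out, 36 of 768 values reversed. The ranges of the 9 that did were -0.043 to 0.29 (Slc6a4, HFD vs. CD), -0.42 to 0.044 (Slc6a4, HFDmetf vs. HFD) and -0.085 to 0.30 (Slc22a3, CDmetf vs. CD). For the averaged diets they were -0.010 to 0.20 (Slc22a4), -0.20 to 0.083 (Slc29a4) and -0.079 to 0.16 (Slc47a1), and for metformin -0.10 to 0.071 (Slc22a5), -0.14 to 0.12 (Slc29a4) and -0.24 to 0.029 (Slc47a1). The averaged diet value of Slc22a3 stayed between 0.70 and 0.90. Where a comparison used only part of the groups, leaving out a library of another group kept the compared groups whole.

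Without the replicate block the averaged diet value of Slc22a3 was 0.82 (FDR = 0.637 by edgeR), and the averaged metformin value of Slc29a4 reversed to -0.042. Same-numbered libraries deviated together weakly (mean r = 0.13 over 72 pairs, 38 over 0.1). This was more than libraries with different numbers (mean r = -0.064 over 144 pairs, 31 over 0.1). Not every same-numbered pair was over 0.1, so the numbers were not taken to pair the animals, though the fit kept them as a block. The counts of pairs given for members are therefore descriptions, and the share of all genes with such counts was not computed. Pairs with HFD M2 or HFD F2 also rest on sex labels in doubt. Counts of at most 107 reads per library limit Slc29a4, and no test is reported for Slc22a2 and Slc19a3. A filter of 10 reads in every library left out Slc22a3 and Slc29a4.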
